A study of Mus musculus with 8 samples.

Results

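Kidneys of diabetic db/db mice that had received a miR-181b-5p mimic were compared with kidneys of normal mice, across all genes on the array. The comparison used the 2 arrays labelled as mimic and the 2 labelled as normal, chosen by their source label alone, so 4 of the 8 arrays of the series entered it directly. The other 4 arrays, 2 of untreated db/db mice and 2 of db/db mice given a control miRNA, served to show which differences from normal kidney were already there without the mimic. The question was which features of the diabetic kidney remained, faded or appeared after the mimic.

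All mice were male and 20 weeks old, and the tissue was kidney. Normal mice were C57BLKS/J Iar -m+/m+ and received nothing. The other 3 groups were C57BLKS/J Iar -+Leprdb/+Leprdb, a genotype without functional long leptin receptor that becomes obese and diabetic. Of these, 1 group was untreated, 1 received control-miRNA-PEI-NPs and 1 received miRNA-181b-5p-mimic-PEI-NPs, where PEI-NPs names the nanoparticle carrier. Mimic and normal mice therefore differed in genotype, carrier and mimic together. The sources used here give no dose, route or schedule, and no hour of tissue collection. Each group holds 2 arrays labelled as separate mice, so every p-value below rests on a spread measured over few samples.

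A microRNA mimic is a short double-stranded RNA whose active strand enters the silencing complex and reduces mRNAs matching its seed, a short stretch near its 5′ end. In the diabetic kidney the proximal tubule handles an excess of filtered glucose and lipid, podocytes of the filter are stressed, and sex hormones, glucocorticoids and vitamin D metabolism shift. Whole kidney is mostly proximal tubule, so genes of that segment dominate the signal. The mature sequences of the miR-181 family from RefSeq are shown because the mimic is named after the first of them. They run 5′ to 3′ on build GRCm38.p6, with the seed, bases 2 to 8, in capitals.
mmu-miR-181b-5p: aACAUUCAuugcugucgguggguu
mmu-miR-181d-5p: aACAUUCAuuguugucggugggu
mmu-miR-181a-5p: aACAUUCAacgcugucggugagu
mmu-miR-181c-5p: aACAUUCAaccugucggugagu
All 4 share 1 seed, and no other name among the 1679 mature mouse miRNA names of the table has it. Counted from the 5′ end of miR-181b-5p, miR-181d-5p differs from it by C12U, and miR-181a-5p by U9A, U10C and G21A. The mouse genome encodes miR-181b-5p at chr1:137966650-137966673 and at chr2:38853845-38853868, both on the plus strand.

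Signals were read on single-colour Agilent arrays. Levels are log2 intensities relative to the 75th percentile of each array, so 0 is that percentile and a difference of 1 is 2-fold. On each array 56.5% to 62.5% of spots exceeded background clearly. Kidney markers were present as labelled: all 18 proximal tubule, all 16 podocyte and all 10 thick ascending limb markers were measured, while adrenal cortex markers summed to a log2 level between -1.09 and -0.47 on the 8 arrays. Normal arrays lay in row 1, columns 1 and 2 of the slide, and mimic arrays in row 2, columns 3 and 4. Place on the slide and group cannot be told apart.

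Mimic mouse 1 stood apart from the other arrays. The mimic arrays correlated with each other at r = 0.976 and 2470 genes lay more than 2-fold apart between them, against 682 genes between the normal mice, 164 between untreated mice and 358 with control miRNA. Results are therefore also given from mimic mouse 2 alone, with the spread taken from the other groups, which assumes that a lone mouse varies as they do. The normal mice also differed: urothelial markers were higher in normal mouse 1 by a median of 1.86 and fat-cell markers by 1.60 on the log2 scale.

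Of 22368 genes tested, 2008 (8.98%) differed between mimic and normal kidney at an adjusted p under 0.05 in limma with Benjamini-Hochberg adjustment. There were 681 genes higher after the mimic (3.04%) and 1327 lower (5.93%), with median differences of 1.12 and -1.15 among them and -0.09 over all genes. The balance of the directions depended on the scaling, since quantile normalization gave 839 higher and 845 lower, and normexp background correction gave 1129 and 1116. The groups did not overlap for 53.8% of all genes. By the same model, 783 genes (3.5%) separated untreated db/db from normal kidney, of which 278 (1.24%) were higher and 505 (2.26%) lower. These comparisons share the normal mice, so their values are given side by side and no overlap is drawn from them. The larger count does not show a larger departure from normal, since the order changed with how the spread was estimated. With only the arrays compared, 22 genes passed for mimic and 2376 for untreated kidney, and with array weights 408 and 2314. Counts of called list members share this limit. The direct comparison of mimic with untreated db/db kidney called 0 genes in limma, with a smallest adjusted p of 0.0742 and 3105 genes (13.9%) at an unadjusted p under 0.05.

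The count leaned on single arrays. Without mimic mouse 1 it was 1898 and without mimic mouse 2 it was 6422, while without normal mouse 1 it fell to 322 and without normal mouse 2 to 352. A fit of the 4 compared arrays alone called 22 genes, all of them lower. Without mimic mouse 2, 4159 genes passed against untreated kidney, and this count describes mimic mouse 1 only. Of the called genes named here and in the closing observations, these passed without either normal mouse: Cyp4a14, Creb3l3, Slco1a1, Sec14l3, Masp2, Alox15, Slc22a26, Slc22a12, Cyp7b1, Ugt2b37, Ugt2b38, Acsm3, Wt1, Synpo, Ms4a7, Bdkrb2, Mt1, Mt2, Pck1, Per1, Per2, Idi1, Cyp51, Me1, Pip5k1a, Tmem269, Gm3230, Armc2 and Gm2800. The other called genes lost the call without at least 1 of the normal mice. Of those that kept it, Tmem269, Gm3230, Armc2 and Gm2800 were not well above background on either mimic array. Other probes of Wt1, Synpo, Mt1, Per2 and Pip5k1a read lower than the brightest ones, as given below. Without mimic mouse 1 the calls of Atp6v0d2, Abcc3, Cyp2a4, Acot1, Hmox1, Cry1, Nr1d1, Sgk1, Tat, Atf3, Klk1, Gclc, Gclm, Ccn2, Slc5a8, Slc5a10 and Akr1b3 were lost, with adjusted p-values from 0.0534 to 0.101 in limma. Without mimic mouse 2 those of Rhbg, Gclc and Akr1b3 were lost, with adjusted p-values from 0.0519 to 0.0661 in limma.

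**Figure D1:**
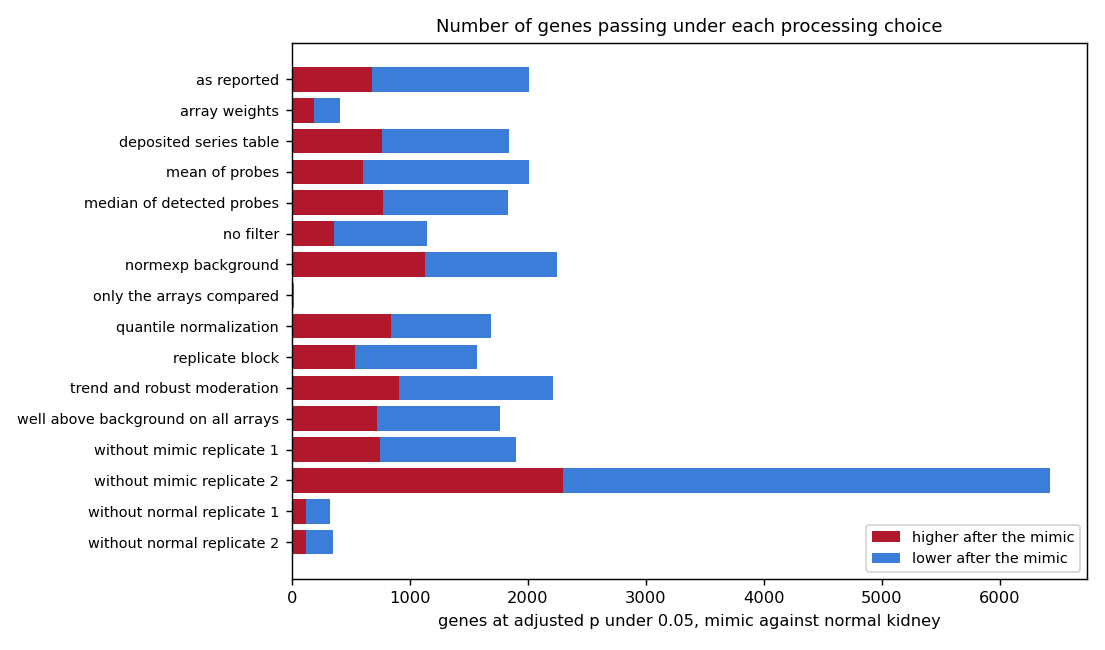
Number of genes at an adjusted p under 0.05 between mimic and normal kidney under each processing choice, with genes higher after the mimic in red and lower in blue. The count was 2008 as reported, 6422 without mimic replicate 2, 322 and 352 without either normal replicate, and 22 when only the 4 arrays compared were fitted.

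The largest rises from normal kidney included genes of fat handling, detoxification and vitamin D, and Cyp4a14, Fabp1, Gc, Cyp27b1, Gsta2 and F10 were above both normal mice in untreated db/db mice as well. Cyp4a14, a fatty acid hydroxylase, had levels of -3.60 and -4.93 in normal mice, 0.39 and 0.51 in untreated db/db mice, and -0.22 and 1.03 with control miRNA. After the mimic they were 0.94 and 0.41. All 6 db/db arrays lay above both normal arrays and the 3 db/db groups overlapped. The rise over normal was 4.94 (SE 0.55, adjusted p = 0.00814, limma).

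Fabp1, the liver-type fatty acid carrier, was at -4.33 and -4.83 in normal mice, -1.47 and -1.48 in untreated mice, -2.03 and -0.58 with control miRNA and -0.61 and 0.05 after the mimic. Its mimic and control values overlapped, and it lay 4.30 above normal (SE 0.49, adjusted p = 0.00828, limma). The call was lost without normal mouse 1 (adjusted p = 0.0519, limma) and without normal mouse 2 (adjusted p = 0.0575, limma). The window of 250 bases before the start of Fabp1 in RefSeq is shown because fatty acid genes are classic targets of the receptor PPAR-alpha, whose element is a direct repeat of AGGTCA-like words. It lies at chr6:71199629-71199878 on the plus strand of GRCm38.p6, and capitals mark the match to AGGNCA repeated in the same direction after 1 base of any kind, searched on both strands.
Fabp1: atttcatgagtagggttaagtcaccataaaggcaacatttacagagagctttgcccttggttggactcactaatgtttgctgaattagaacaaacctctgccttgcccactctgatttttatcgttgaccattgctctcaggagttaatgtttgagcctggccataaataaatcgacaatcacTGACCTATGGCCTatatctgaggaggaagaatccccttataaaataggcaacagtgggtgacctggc
The repeat occurred once here, on the minus strand, and in 0.338% of the 32851 gene windows of that length. A match describes letters and shows neither binding nor a cause.

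Gc, the plasma carrier of vitamin D, was 1.04 and 1.5 in normal mice, 5.37 and 5.44 in untreated mice and 5.99 and 4.71 after the mimic. Cyp27b1, which makes the active vitamin D hormone, was -2.39 and -1.89 in normal mice, 0.98 and 0.97 in untreated mice, 1.40 and 2.09 with control miRNA and 2.58 and 1.46 after the mimic. Every db/db array lay above every normal array for both genes. The rises after the mimic were 4.08 for Gc (adjusted p = 0.0091, limma) and 4.16 for Cyp27b1 (adjusted p = 0.00617, limma). Without normal mouse 1 the adjusted p was 0.0649 for Gc and 0.0502 for Cyp27b1 in limma. Trpv5, the calcium channel of the distal tubule, rose by 1.63 (adjusted p = 0.0174, limma). These were the 3 of 20 vitamin D and calcium genes that passed, all higher, beside 3.04% of all genes. The median over the 20 was 0.06.

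Gsta2, an alpha-class glutathione transferase, was 0.36 and 0.97 in normal mice, 5.26 and 5.36 in untreated mice and 3.64 and 5.66 after the mimic. Mimic mouse 1 was the lowest of the db/db arrays but still above both normal mice. The difference was 3.99 (SE 0.67, adjusted p = 0.0224, limma), and 0.115 and 0.0848 were the adjusted p-values without normal mouse 1 and 2. Gm10639 rose by 3.98, and 2 unnamed transcripts of the same stretch of chromosome 9 by 4.05 and 3.80. The alpha-class genes are near-identical copies, so their probes may share signal. F10, coagulation factor X, was not well above background in normal kidney and at least 6.23-fold higher after the mimic (adjusted p = 0.0168, limma).

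The largest falls included organic anion transporters and enzymes of steroid and lipid metabolism, beside less characterised genes such as 0610009K14Rik (at least 359-fold lower), Albfm1 (at least 32.1-fold) and Ceacam13 (at least 34.2-fold). Slco1a1, an organic anion carrier under androgen control, had levels of 2.15 and 3.01 in normal mice, -4.47 and -4.05 in untreated mice, -3.67 and -3.68 with control miRNA and -6.91 and -5.85 after the mimic. Both mimic arrays were below all other arrays and not well above background, which makes the gene at least 192-fold lower than in normal kidney (adjusted p = 0.00123, limma). Against untreated db/db kidney it was at least 1.68-fold lower, which did not pass (adjusted p = 0.148, limma). Sec14l3, a lipid transfer protein gene, was near 1 in normal mice, at 0.99 and 1.09, and between -7.41 and -7.00 on all 6 db/db arrays. It was at least 66.2-fold lower after the mimic (adjusted p = 3.63e-05, limma).

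Slc22a7, an organic anion transporter, was 5.82 and 5.52 in normal mice, -1.14 and -0.88 in untreated mice, -0.67 and -1.76 with control miRNA and -1.50 and 0.27 after the mimic. The 3 db/db groups overlapped far below normal. The fall was -6.29 (SE 0.61, adjusted p = 0.006, limma), with an adjusted p of 0.0502 without normal mouse 1. Cyp7b1, an oxysterol and androgen hydroxylase, was 5.75 and 5.56 in normal mice, 1.11 and 1.39 in untreated mice, 1.30 and 1.48 with control miRNA and 0.58 and 0.25 after the mimic. Its difference of -5.24 (SE 0.18, adjusted p = 0.000435, limma) passed in all 15 other settings, and both mimic arrays were below the other 6. Masp2, a protease of the lectin complement pathway, fell by 5.54 (adjusted p = 0.00213, limma), and Alox15, a lipoxygenase, was at least 29.2-fold lower (adjusted p = 0.00518, limma).

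**Figure D2:**
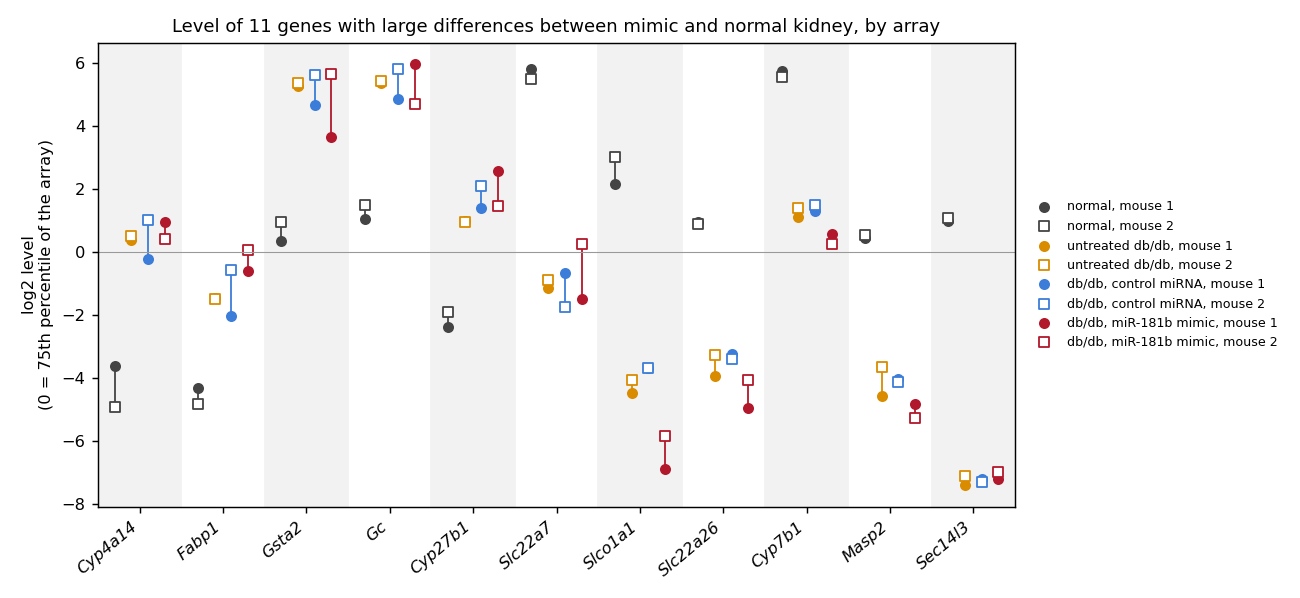
Log2 level (0 is the 75th percentile of the array) of 11 genes with large differences between mimic and normal kidney; circles are mouse 1, squares mouse 2, and a line joins the mice of a group. For all 11 genes the 2 normal arrays lay on one side and the 6 db/db arrays on the other.

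Among 29 organic ion transporters, 10 fell and 3 rose between normal and mimic kidney, beside 5.93% and 3.04% of all genes. Their median was -0.79, beside -0.09 over all genes and -0.37 in untreated mice. Slc22a26 fell by 5.42, Slc22a12, the urate transporter, by 1.77 (adjusted p = 0.00697, limma) and Slc22a2, an organic cation transporter, by 1.29 (adjusted p = 0.00919, limma). The export pumps Abcc3, Abcc4 and Abcb1b rose by 1.66, 1.25 and 1.14. A second Abcb1b probe read -0.29. Slc22a28 was -0.82 in mimic mouse 1 and 1.97 in mimic mouse 2, Slc22a30 was -0.72 and 2.13, and both were at least 4.10 in normal and at least 2.85 in the other db/db mice. Without normal mouse 1 or normal mouse 2, 4 of the 29 passed, all lower.

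Of 19 measured androgen-dependent kidney genes, 13 fell and 0 rose, beside 5.93% and 3.04% of all genes. The median was -2.01 after the mimic and -1.40 in untreated mice, where 7 fell, beside 2.26% of all genes. Kap, the androgen-regulated protein of the proximal tubule, was 9.21 and 9.29 in normal mice, 7.99 and 8.28 in untreated mice, 8.48 and 7.95 with control miRNA and 6.63 and 7.85 after the mimic. Both mimic arrays were the lowest of the 8, and the fall was 2.01 (adjusted p = 0.0352, limma). Acsm3, a medium-chain acyl-CoA ligase, fell by 4.65, Slc7a13, an amino acid transporter, by 4.42, and the glucuronosyltransferases Ugt2b37 and Ugt2b38 by 2.62 and 2.31. Odc1, the first enzyme of polyamine synthesis, fell by 1.36 and Cyp4b1 by 1.68. From mimic mouse 2 alone 13 fell as well, against 6 without normal mouse 1 and 5 without normal mouse 2. Of 13 genes reported as female-biased in kidney, 4 rose and 3 fell, so this list had no single direction. Those that rose were Cyp4a14, Gsta2, Cyp2d26 by 1.71 (0.34 by a second probe) and Abcc3, and those that fell were Cyp2a4 by 1.5, Cndp2 by 2.19 and Slc22a28.

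Podocyte genes were led by rises. Of 16, 8 rose and 0 fell, beside 3.04% and 5.93% of all genes. The median was 0.98 after the mimic and 0.82 in untreated mice. With the probes of each gene averaged, it was 0.59 after the mimic. Wt1, the transcription factor that maintains podocytes, was 0.14 and 0.01 in normal mice, 1.40 and 1.24 in untreated mice, 1.21 and 1.09 with control miRNA and 1.57 and 1.40 after the mimic. The db/db arrays all lay above the normal ones, and the difference was 1.41 (SE 0.13, adjusted p = 0.006, limma). A second Wt1 probe read -0.73. Podxl, the sialoprotein of the podocyte surface, rose by 1.49 (adjusted p = 0.00995, limma) and Cdkn1c, a cell cycle inhibitor, by 2.36 (adjusted p = 0.0117, limma). Nphs1, encoding nephrin, was -1.05 and -0.99 in normal mice, 0.19 and -0.12 in untreated mice and -0.30 and 0.25 after the mimic, and its difference of 0.99 was just past the threshold (adjusted p = 0.0496, limma), with 1.87 by a second probe. Synpo rose by 1.33, and its other probes read -0.01, 0.04 and 0.60. Without either normal mouse 2 of the 16 passed, and with the 4 arrays alone 0 did. In bulk tissue more podocytes and more RNA per podocyte cannot be told apart. The basement membrane chains Col4a3 and Col4a4, which podocytes make, fell by 1.29 and 0.60.

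Of 12 intercalated cell genes, 4 rose and 0 fell, beside 3.04% and 5.93% of all genes. Car2, a carbonic anhydrase, rose by 0.99 (adjusted p = 0.00828, limma) and the ammonia channel Rhbg by 0.84. The proton pump subunits Atp6v1b1 and Atp6v0d2 rose by 0.56 and 0.49. None of the 12 passed without either normal mouse. Among 11 genes of the collecting duct principal cell 1 rose, Kcnj10, and 1 fell, Aqp4, with a median of -0.28. Aqp4, a water channel of the collecting duct, was 2.53 and 2.16 in normal mice, 1.19 and 1.06 in untreated mice and -1.13 and 0.33 after the mimic, a fall of 2.75 (adjusted p = 0.029, limma). Other Aqp4 probes read -2.79 and -0.11. Cldn10, a tight junction protein of the thick limb, fell by 1.03 (adjusted p = 0.0187, limma). Among endothelial genes 3 of 16 rose, beside 3.04% of all genes. The angiopoietin receptor Tek rose by 1.05 (adjusted p = 0.00814, limma) and the glomerular endothelial gene Ehd3 by 0.74. Of 15 renin, angiotensin and kallikrein genes 4 rose and 2 fell, beside 3.04% and 5.93% of all genes. Ace, the angiotensin-converting enzyme, fell by 2.14 (adjusted p = 0.0335, limma), and Mas1, the receptor for angiotensin 1-7, was lowest on both mimic arrays at -5.83 and -3.49, against -0.71 and -0.82 in normal and -2.79 and -2.70 in untreated mice. Klk1 rose by 0.88 and the bradykinin receptor Bdkrb2 by 1.57 (adjusted p = 0.006, limma). Without either normal mouse 0 of the endothelial genes and 1 of the renin list passed.

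Features that faded would be genes far from normal in untreated db/db mice and close to it after the mimic. Among the genes with the largest differences between untreated and normal kidney, the one that did not pass between mimic and normal was Crabp1, a retinoic acid carrier. It was at -5.34 and -6.70 in normal mice, -2.31 and -2.88 in untreated mice, -3.22 and -3.40 with control miRNA and -5.30 and -3.69 after the mimic. Neither normal array and only 1 mimic array was well above background, so these levels have no exact distance. Against normal it was at least 1.37-fold higher after the mimic, which did not pass (adjusted p = 0.165, limma), and at least 5.14-fold higher in untreated mice. The difference from untreated kidney was -1.90 (adjusted p = 0.288, limma). Kynu, an enzyme of tryptophan breakdown, stayed higher by 2.93 (adjusted p = 0.0347, limma) beside 3.78 in untreated mice, with mimic mouse 1 at -0.49 and mimic mouse 2 at 1.38. Haemoglobin genes were high in untreated mice, with Hba-a1 at 6.36 and 6.95 against 2.23 and 3.25 in normal mice, and after the mimic they split into 7.38 in mouse 1 and 1.75 in mouse 2. No red cell gene passed in either comparison.

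**Figure D3:**
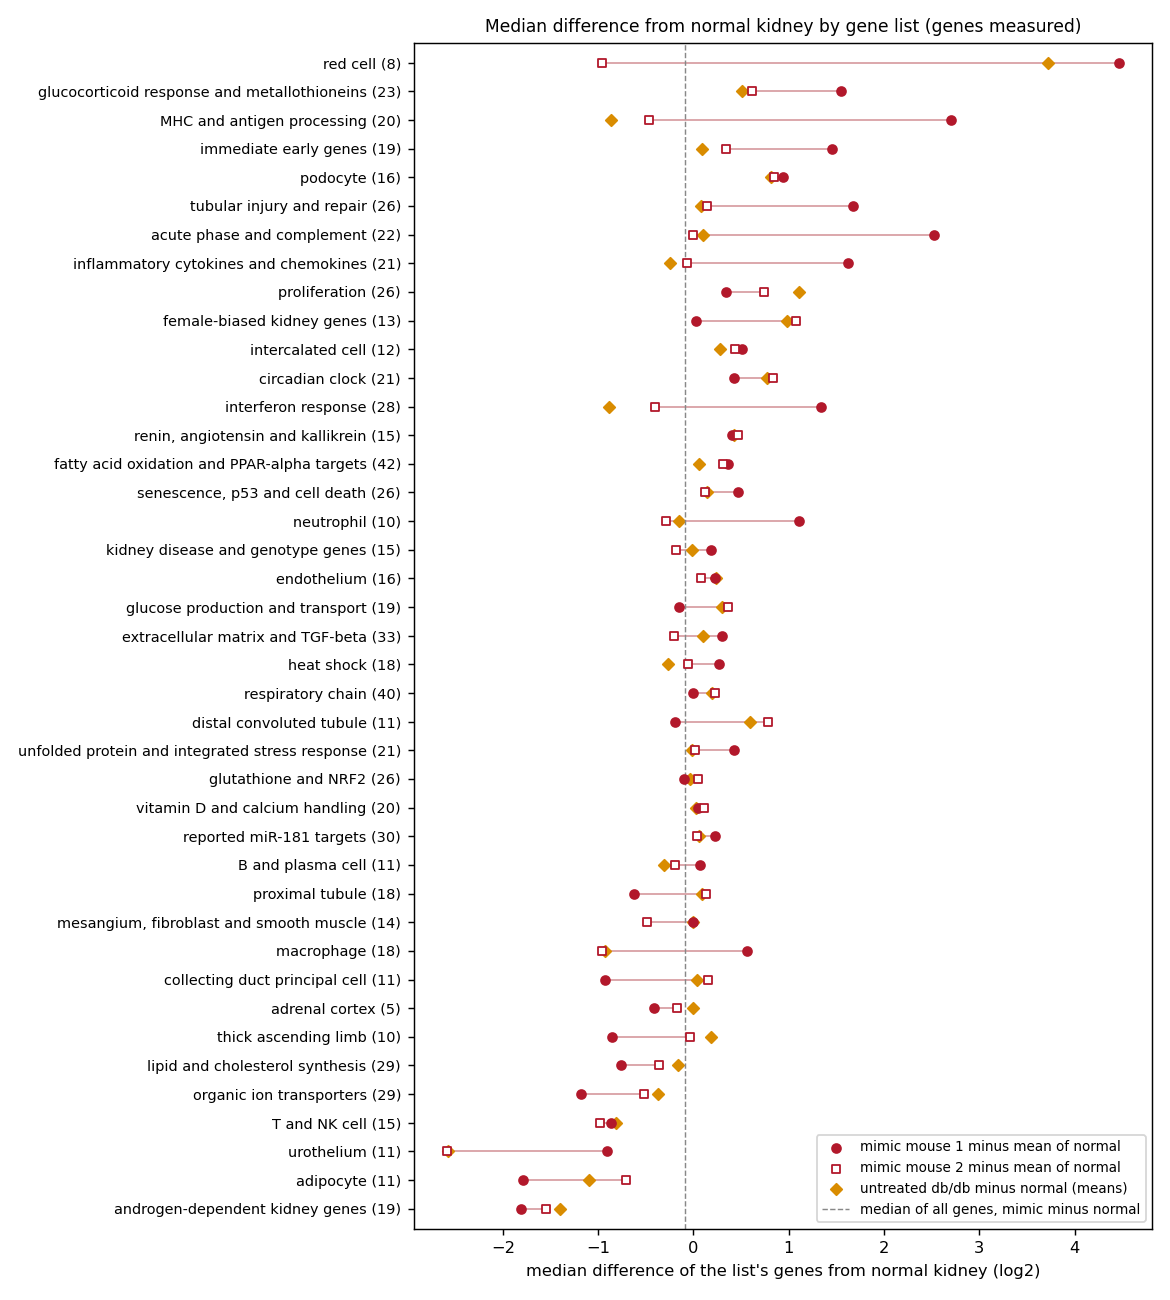
Median log2 difference from normal kidney over the measured members of each of the 41 gene lists, in mimic mouse 1 (filled circles), mimic mouse 2 (open squares) and untreated db/db mice (diamonds), with the median of all genes, -0.09, as a dashed line. The mice given the mimic were 2.70 and -0.46 apart from normal for MHC genes, and 0.94 and 0.85 for podocyte genes.

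In 1506 genes (6.73%) both mimic arrays lay above all 6 other arrays, and in 2096 (9.37%) below them. None of these passed directly against untreated kidney, so where genes below lie apart from untreated kidney, they do so by their values only. Some genes given beside them lay near untreated mice or did not pass against normal. The metallothioneins, small zinc-binding proteins, were the clearest. Mt2 was 4.94 and 4.77 in normal mice, 5.40 and 5.34 in untreated mice, 5.70 and 5.68 with control miRNA and 6.87 and 6.63 after the mimic. Mt1 was 6.12 in both normal mice, 6.84 and 6.79 in untreated mice, 6.91 and 7.12 with control miRNA and 7.66 and 7.70 after the mimic. The order of the groups was the same for both genes and no group overlapped another. Mt2 rose over normal by 1.89 (SE 0.13, adjusted p = 0.00484, limma) and Mt1 by 1.56 (SE 0.12, adjusted p = 0.00488, limma). Against untreated mice the differences were 1.38 for Mt2 (adjusted p = 0.114, limma) and 0.86 for Mt1 (adjusted p = 0.119, limma). A second Mt1 probe read 0.44 over normal.

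The windows of 250 bases before the starts of Mt1 and Mt2 in RefSeq are shown because metallothionein genes carry metal response elements, bound by the zinc sensor MTF-1. They lie at chr8:94178839-94179088 and chr8:94172368-94172617 on the plus strand of GRCm38.p6, and capitals mark the core words TGCACNC and TGCGCNC on either strand.
Mt1: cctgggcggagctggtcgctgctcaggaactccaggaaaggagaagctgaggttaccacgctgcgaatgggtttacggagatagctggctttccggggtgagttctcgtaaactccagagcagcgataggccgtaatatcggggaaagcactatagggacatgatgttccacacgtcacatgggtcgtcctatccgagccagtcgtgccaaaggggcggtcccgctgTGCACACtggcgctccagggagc
Mt2: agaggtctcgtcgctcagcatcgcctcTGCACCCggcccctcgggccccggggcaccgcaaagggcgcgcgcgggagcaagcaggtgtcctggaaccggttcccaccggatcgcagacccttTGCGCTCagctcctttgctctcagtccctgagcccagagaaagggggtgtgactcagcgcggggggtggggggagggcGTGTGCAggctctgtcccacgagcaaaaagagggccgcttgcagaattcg
Within these windows Mt1 held 1 match and Mt2 held 3, with 0 overlaps, and bases outside the windows were not searched. At least 1 match occurred in 21.4% of the 32851 windows and 3 or more in 1.26%, and a match here is a description only.

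The list of glucocorticoid response genes and metallothioneins had 8 of 23 members higher and 1 lower, beside 3.04% and 5.93% of all genes. Its median was 1.56, beside 0.51 in untreated mice, but gene by gene the median difference between mimic and untreated mice was 0.31. With the probes of each gene averaged, the median over normal was 1.00. Per mouse the medians were 1.54 in mimic mouse 1 and 0.61 in mimic mouse 2. Tsc22d3, a classic glucocorticoid target, was 2.26 and 1.99 in normal mice, 3.14 and 2.61 in untreated mice, 2.58 and 2.55 with control miRNA and 3.88 and 3.59 after the mimic. Fkbp5, which restrains the glucocorticoid receptor, was 1.85 and 1.86 in normal mice, 2.78 and 2.52 in untreated mice and 4.42 and 3.09 after the mimic. Both were highest on the mimic arrays, with rises of 1.61 (adjusted p = 0.0118, limma) and 1.90 (adjusted p = 0.0406, limma). Neither passed without normal mouse 1 (adjusted p = 0.0574 and 0.146, limma) or normal mouse 2 (0.0695 and 0.135). Pck1, the key enzyme of glucose production, rose by 2.28 (adjusted p = 0.00828, limma) to 8.36 and 8.06, above untreated mice at 7.17 and 6.99. Sgk1, Per1 and Sult1a1 rose by 2.53, 1.78 and 1.65, with Per1 at 3.26 and 3.05 beside 3.14 and 3.13 in untreated mice. Tat, a liver-type glucocorticoid target, fell by 0.86.

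Clock genes did not move in 1 direction. Of 21, 5 rose and 2 fell, beside 3.04% and 5.93% of all genes. The median was 0.49, beside 0.77 in untreated mice. Normal mouse 1 lay below normal mouse 2 over this list, with a median difference of -0.73. The mimic median was 0.33 without normal mouse 1 and 0.98 without normal mouse 2. Nr1d1, which encodes the repressor REV-ERB-alpha, was -0.62 and 0.66 in normal mice, -0.62 and 0.54 in untreated mice, -0.09 and -0.17 with control miRNA and -2.61 and -2.51 after the mimic. Both mimic arrays were the lowest of the 8, and the fall from normal was 2.58 (SE 0.50, adjusted p = 0.034, limma). Cry1, a repressor of the core loop, rose by 1.53 (adjusted p = 0.0324, limma), and a second probe by 4.04. Nfil3, a repressor of clock output genes, was 3.16 and 2.26 after the mimic and at most 1.73 elsewhere, but the normal mice lay apart at 1.73 and -0.17 and it did not pass (adjusted p = 0.111, limma). Per2 and Wee1 rose by 3.05 and 1.69 as they did in untreated mice, by 2.44 and 1.81. A second Per2 probe read 0.09. Without normal mouse 2 the adjusted p was 0.11 for Nr1d1 and 0.0932 for Cry1, without mimic mouse 1 it was 0.0717 and 0.0553, and without normal mouse 1 it was 0.0544 for Nr1d1, in limma.

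In the list of lipid and cholesterol synthesis 7 of 29 fell and 0 rose, beside 5.93% and 3.04% of all genes. The median was -0.48 after the mimic and -0.16 in untreated mice. Cyp51, a sterol demethylase, was 3.91 and 4.29 in normal mice, 1.87 and 1.90 in untreated mice, 1.78 and 1.85 with control miRNA and 0.25 and 1.28 after the mimic. Idi1, an isoprenoid isomerase, was 4.06 and 3.96, then 2.35 and 2.23, 2.25 and 1.83, and 0.89 and 1.38 in the same order. Both genes stepped down from normal to db/db and again to the mimic arrays, which did not overlap any other group. The falls from normal were 3.34 (adjusted p = 0.00617, limma) and 2.87 (adjusted p = 0.00488, limma), and the differences from untreated mice were -1.12 for Cyp51 (adjusted p = 0.255, limma) and -1.15 for Idi1 (adjusted p = 0.141, limma). Insig1, which holds back the sterol sensor, was between -1.52 and -1.21 on the 6 other arrays and at -3.08 and -2.16 after the mimic, a fall of 1.36 (adjusted p = 0.0399, limma) that did not pass without either normal mouse.

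Fatty acid oxidation genes and targets of PPAR-alpha, the receptor that switches on fat burning, numbered 42. Of these 7 rose and 2 fell, beside 3.04% and 5.93% of all genes. Their median was 0.37, beside 0.06 in untreated mice. Creb3l3, a fasting-induced transcription factor outside that list, was -5.61 and -5.12 in normal mice, -3.50 and -4.42 in untreated mice, -3.98 and -3.57 with control miRNA and -1.09 and -1.58 after the mimic. It was highest on both mimic arrays, not well above background in normal kidney, and at least 12.3-fold higher (adjusted p = 0.006, limma). Acot1, Acot2 and Slc25a20, which handle acyl-CoA and carnitine esters, were also highest on the mimic arrays and rose by 0.86, 1.14 and 1.20. Cd36, the fatty acid importer, fell by 3.47 (adjusted p = 0.0212, limma) beside 3.14 in untreated mice. Pdk4, Angptl4 and Plin2 were much higher in mimic mouse 1, at 3.77, 6.16 and 5.17, than in mimic mouse 2, at 0.85, 3.89 and 3.33, and did not pass. Without normal mouse 1 or normal mouse 2, 1 of the 42 passed.

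**Figure D4:**
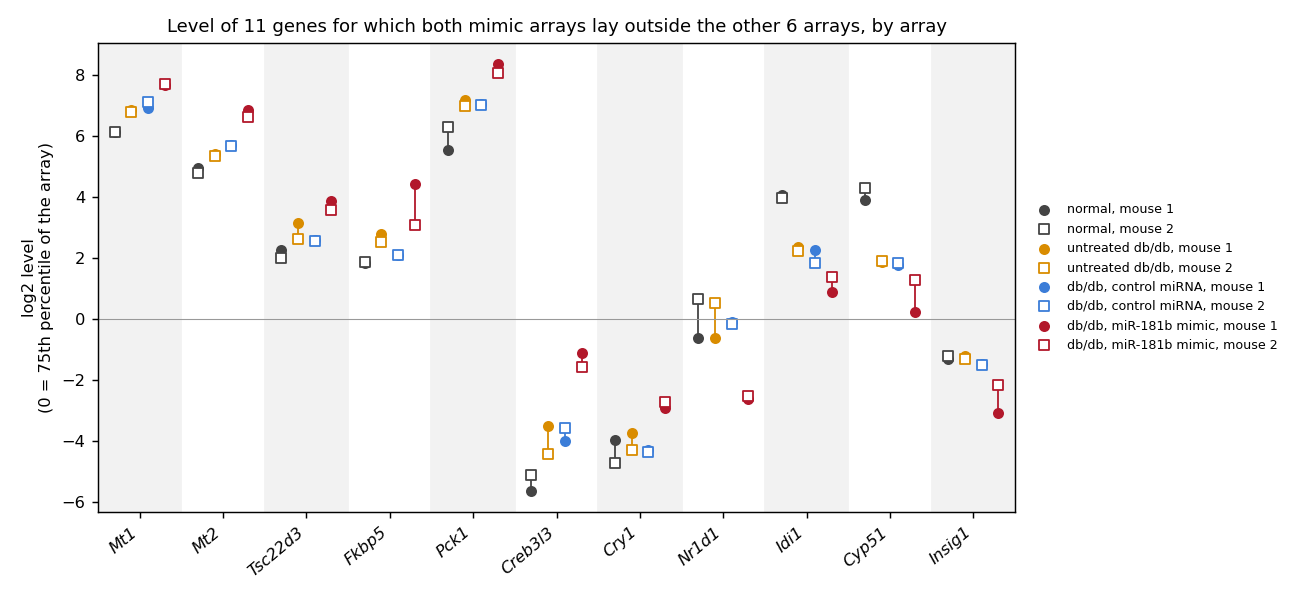
Log2 level (0 is the 75th percentile of the array) of 11 genes for which both mimic arrays lay outside the other 6 arrays; circles are mouse 1, squares mouse 2. Mt2 was 6.87 and 6.63 on the mimic arrays and at most 5.70 elsewhere, and Nr1d1 was -2.61 and -2.51 and at least -0.62 elsewhere.

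The genes with the smallest unadjusted p against untreated kidney, among those outside the other 6 arrays, were led by Mt2 and Pip5k1a on the high side. Pip5k1a, a phosphoinositide kinase, was 4.30 and 4.12 after the mimic and between 2.41 and 3.29 elsewhere, but its other probes read -0.07 and -0.35 against normal. Rbm14, an RNA-binding protein, was 2.85 and 2.88 against at most 2.28. On the low side were Tmem269, Gm3230, Gli3, Armc2, Tceanc2 and Gm2800, all between -7.12 and -3.74 on the 8 arrays and not well above background on either mimic array. They entered the test through another group, which favours a low reading after the mimic, so their falls are descriptions only. Over the other settings the difference from normal ran from -1.96 to -0.47 for Tmem269 and from -2.49 to -0.36 for Gm3230. Hmox1, the stress-induced haem oxygenase, was 2.76 and 2.90 after the mimic and at most 2.17 elsewhere, a rise of 0.68 over normal (adjusted p = 0.0449, limma). Atf3 and Ier3, immediate early genes, rose by 2.09 and 1.66, and Cdkn1a, the p53 target p21, did not pass (difference 2.70, adjusted p = 0.0838, limma; 1.24 by a second probe).

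The genes that differed most between the mice given the mimic, all higher in mimic mouse 1, included acute phase genes and interferon-induced genes, beside others such as the protease gene Adamts4 and the vomeronasal receptor gene Vmn1r65. Saa2, a serum amyloid A protein, was 5.75 in mimic mouse 1, -5.01 in mimic mouse 2 and between -6.83 and -3.78 in the other 6 mice. Lcn2, a marker of tubular injury, was 4.91 in mimic mouse 1 and -1.32 in mimic mouse 2, with -0.50 and -1.20 in normal mice. Fgb, a fibrinogen chain, was 4.77 and -2.28, and the interferon-induced GTPase Gbp6 was 3.94 and -2.82. Mimic mouse 2 lay within the range of the other 6 mice for Saa1 and Saa2 and just below it for Lcn2, and none of these genes passed (adjusted p = 0.352 for Lcn2 and 0.218 for Saa2, limma). The median difference from normal was 2.52 in mimic mouse 1 and -0.01 in mimic mouse 2 for 22 acute phase and complement genes, 2.70 and -0.46 for 20 MHC and antigen processing genes, 1.34 and -0.40 for 28 interferon response genes and 1.68 and 0.14 for 26 tubular injury genes. In these 4 lists Clu and Atf3 rose, by 1.55 and 2.09, and Itgb6 and Masp2 fell, by 1.38 and 5.54. Markers of the proximal tubule were lower in mimic mouse 1 than in mimic mouse 2 by a median of 0.64, and those of the thick ascending limb and distal convoluted tubule by 0.87 each.

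**Figure D5:**
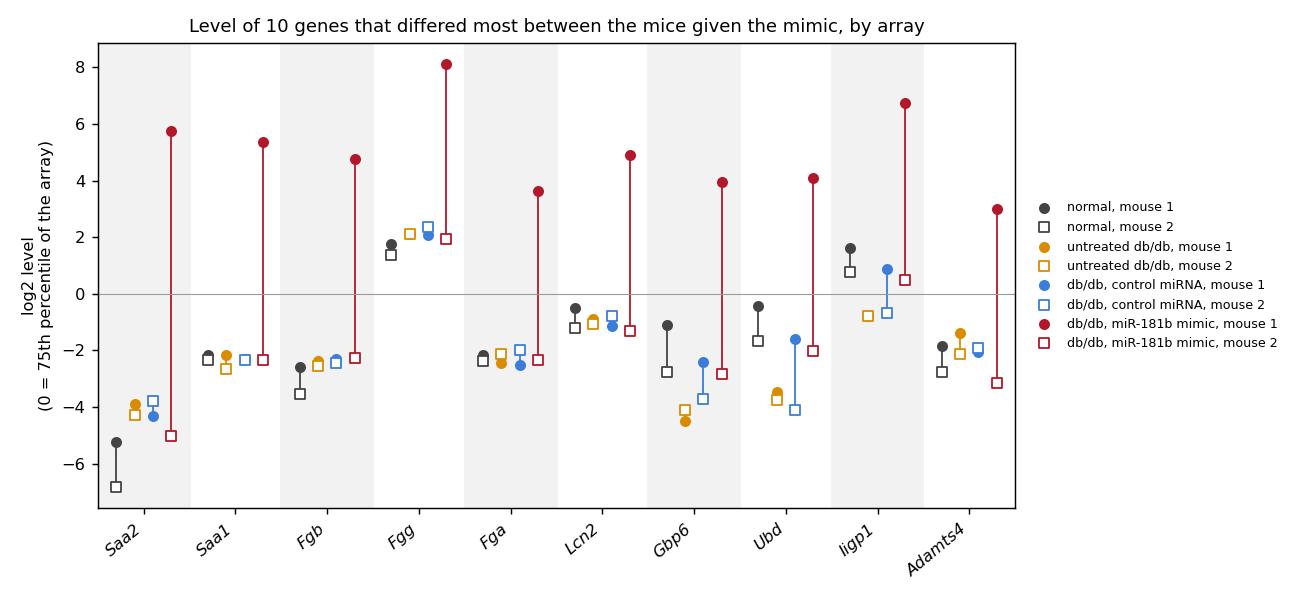
Log2 level (0 is the 75th percentile of the array) of 10 genes that differed most between the mice given the mimic; circles are mouse 1, squares mouse 2. Saa2 was 5.75 in mimic mouse 1 and -5.01 in mimic mouse 2.

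Markers of other cells moved with some of these values, and their part in the results was not tested. The summed log2 level of 18 macrophage markers was 5.66 and 5.60 in normal mice and 5.92 and 4.23 after the mimic. Of these 3 fell: Itgam, an integrin of myeloid cells, by 2.72 (adjusted p = 0.00881, limma) to 0.93 and 1.98, below untreated mice at 2.95 and 3.00; Ms4a7 by 1.80; and Csf1r, the CSF-1 receptor, by 1.04 (-0.39 by a second probe). Without mimic mouse 1, 9 of the 18 fell and 0 rose, beside 1152 and 746 of all 22368 genes. Without mimic mouse 2, 7 rose and 3 fell, beside 2297 and 4125 of all genes, and without either normal mouse 1 fell. Of 15 T and NK cell markers 4 fell, among them Cd3e by 0.94, beside 5.93% of all genes. Their summed levels were 2.67 and 2.53 in normal mice and 1.82 and 2.04 after the mimic. A second Cd3e probe read 0.01, and none of the 15 passed without either normal mouse. The neutrophil genes S100a8 and S100a9 were 2.80 and 4.58 in mimic mouse 1 and -3.14 and -1.22 in mimic mouse 2. The 8 red cell markers summed to 8.54 in mimic mouse 1 and 3.38 in mimic mouse 2, with 3.76 and 4.57 in normal mice. The 11 urothelial markers summed to 4.69 and 3.87 in normal mice and 4.13 and 3.53 after the mimic, and 0 passed. The 11 fat-cell markers summed to 6.68 and 5.13 and to 5.11 and 5.00, and 0 passed. Adipoq, well above background on 1 of the 2 mimic arrays, was at -4.80 and -5.04 after the mimic, against 0.39 and -3.26 in normal mice.

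Reported miR-181 targets were set against normal kidney as a list. Of 30 measured, 1 fell and 0 rose, beside 8.98% of all genes called, and the median was 0.05. The member that fell was Timp3, an inhibitor of metalloproteases, at 6.89 and 6.97 in normal mice, 6.42 and 6.25 in untreated mice, 6.53 and 6.43 with control miRNA and 6.06 and 6.27 after the mimic. The mimic arrays overlapped the untreated ones, and the fall was 0.76 (SE 0.13, adjusted p = 0.0254, limma), beside 0.59 in untreated mice. Its other probes read -1.92 and -0.60 against normal, and -1.54 and -0.15 against untreated kidney, so the size of its difference from untreated kidney depended on the probe. Its call was lost without normal mouse 1 (adjusted p = 0.0886, limma) and normal mouse 2 (adjusted p = 0.0992, limma). Bcl2 and Kpna4, often studied as miR-181 targets, differed from normal by 0.08 and -0.22 and did not pass. Lepr, the gene that carries the db mutation, was 3.12 and 3.08 in normal mice, 2.29 and 2.30 in untreated mice and 1.98 and 2.35 after the mimic. The fall was 0.93 (adjusted p = 0.0253, limma), and a second probe read -2.24. Col1a1, Col4a1, Fn1 and Tgfb1, genes of scarring, differed by -1.11, 0.19, 0.28 and 0.31 and did not pass. Other probes read -0.63 and -0.56 for Col1a1, -0.02 and -0.66 for Fn1 and -0.02 for Tgfb1.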

How the data were processed

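Kidney RNA of 8 mice was labelled with Cy3 and hybridised to Agilent arrays, per the labels. Spot intensity and background and saturation calls were deposited per array, made with Agilent Feature Extraction 12.0.3.1 per the submitters' processing notes. Per the file headers the processed intensity is background-subtracted and detrended, with small positive surrogates for spots at background. The deposited series table holds a linear ratio that rises with expression: from the values, it is each intensity after scaling to the 75th percentile, over the median of that probe across 8 arrays (r of at least 0.9995 with rescaled scanner values), with column medians from 0.971 to 1.08. It served as an alternative.

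Each array's 59305 spots were averaged to 56605 probes, 4 probes were dropped for outlier calls, and the log2 intensity minus the array's 75th percentile was taken. Probes well above background on both arrays of any group (33638) were kept, and the brightest probe stood for each of the 22368 genes. Names came from the RefSeq table of GRCm38.p6: 33766 probes matched an accession, 9864 a symbol and 310 an older synonym, and the other 12661 carry the array's own name. Other probes of a gene are quoted where they changed its reading, not for every gene.

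A model with 1 mean per group over all 8 arrays was fitted in limma 3.58.1 (R 4.3.3, with 4 residual and 2.23 prior degrees of freedom) with Benjamini-Hochberg adjustment, called at an adjusted p under 0.05. The fit was tested on simulated data that gave each gene the same spread in all groups. The mimic mice differed more from each other, so that test does not bear on the calls here. An exact permutation test of 2 against 2 cannot go below 0.333. A fold is "at least" where no array of the dim group lay well above background: the other group's mean is set against the dim values raised to the lowest signal well above background on each array. Replicate numbers of the labels did not pair the mice (correlations of deviations from -0.019 to 0.159).

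Members, 41 gene lists and rules were chosen with earlier results of these data known. Named genes are the 12 largest called rises and falls against normal, the same for untreated mice, the 8 most different from untreated on each side among genes outside all 6 other arrays, list members, disease genes, and the 12 that differed most between the mimic mice. Alternatives were normexp, quantile and detected-median scaling, the series table, 2 filters, probe means, array weights, trended moderation, a replicate block, the compared arrays alone, and leaving out each array. Some results are not reported here.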

Additional observations from a re-analysis of the deposited data

How the results depend on the processing

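The 24 genes with the largest differences between mimic and normal kidney kept their direction in every setting run (10 of them were tested under the filter for all arrays); all 24 passed without either mimic mouse, 10 without normal replicate 1, 13 without normal replicate 2 and 7 with only the 4 arrays compared. Among the 182 genes followed over the settings, no called gene changed direction, but many lost the call in some settings. The count of genes between mimic and normal kidney was 2008, and moved to 408 with array weights, 1149 with no filter and 22 with only the arrays compared. Leaving out single arrays gave 322 to 6422. Between untreated and normal kidney the count was 783, and moved to 2314 with array weights, 292 with no filter, 2004 with normexp, 2376 with only the arrays compared, 1319 with trended moderation and 473 with the replicate block, and was 19 to 49 when 1 array was left out (42 and 49 without normal replicate 1 and 2, 19 and 21 without untreated replicate 1 and 2). The replicate block gave 1567 genes between mimic and normal kidney, 535 higher and 1032 lower. Between mimic and untreated kidney the count was 0 in each setting except without mimic replicate 2 (range 0 to 4159). The causes of these shifts were not tested. Values near background are surrogates, so differences there have a direction and a bound only.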

Other observations

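Values of cell cycle and stress genes follow as descriptions, since the counts of called members in these lists lay near or below the 8.98% called over all genes. Of 26 proliferation genes 1 rose and 1 fell between normal and mimic kidney: Top2a, which untangles replicating DNA, was -3.57 and -4.14 in normal mice, -2.07 and -1.87 in untreated mice and -2.45 and -2.23 after the mimic (difference 1.52, adjusted p = 0.0137, limma), and E2f2 fell by 1.02. The median of the list was 0.62 after the mimic and 1.11 in untreated mice. Of 18 heat shock genes 1 passed: Hspb8, a small chaperone, rose by 2.16 (adjusted p = 0.0247, limma) and was highest on both mimic arrays, at -0.60 and -1.58. Pmaip1, a cell death gene of the p53 pathway, rose by 1.38 (adjusted p = 0.017, limma), and Glb1, the lysosomal galactosidase used as a senescence stain, fell by 1.18 (adjusted p = 0.0118, limma). The 40 respiratory chain genes had a median of 0.11, and 0 passed in limma.

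Glucose handling genes split, beside 3.04% of all genes higher and 5.93% lower. Of 19, 3 rose and 2 fell: Pck1, Pklr by 1.12 (adjusted p = 0.011, limma) and Slc5a10, a mannose and fructose transporter, by 0.75, against Akr1b3, aldose reductase, by 2.03 (adjusted p = 0.0492, limma) and Slc5a8, a lactate transporter, by 0.89. Akr1b3 was 5.67 and 4.19 in the normal mice, which differed from each other more than the db/db groups did. Among 26 genes of the glutathione list 3 rose, Gsta2, Gstt1 and Hmox1, and 3 fell, with a median of 0.09. Gclc and Gclm, the subunits of the rate-limiting enzyme, fell by 0.72 and 0.85 and malic enzyme Me1 by 1.48 (adjusted p = 0.00698, limma), with differences of 0.10, -0.02 and -0.19 from untreated mice. Connective tissue growth factor Ccn2 rose by 1.10 (adjusted p = 0.0484, limma) beside 1.24 in untreated mice. The calls of Gclc, Gclm, Ccn2, Slc5a8, Slc5a10 and Akr1b3 were lost without mimic mouse 1, and those of Gclc and Akr1b3 also without mimic mouse 2.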
